A study of Homo sapiens with 12 samples.

Results

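The 22 genes of ephrins and Eph receptors were taken from the RPKM table by gene name among the protein-coding entries, and all 22 were found among 17665 protein-coding genes (32152 genes of all types). They are 9 EphA receptors (EPHA1 to EPHA8 and EPHA10), 5 EphB receptors (EPHB1 to EPHB4 and EPHB6), 5 ephrin-A ligands (EFNA1 to EFNA5) and 3 ephrin-B ligands (EFNB1 to EFNB3). Their levels were compared in a pair of long-established lines of triple-negative breast cancer, MDA-MB-231 and Hs-578T, with 12 bulk RNA-seq libraries in 6 groups. Every line had 2 parental controls, 2 ERK5-ko and 2 MEK5DD libraries. ERK5-ko cells were cut by CRISPR/Cas9 in MAPK7, the gene of the kinase ERK5, sorted for GFP and grown from single cells, and the parental controls are the untransfected lines. A single MDA-MB-231 knockout clone survived, so that clone and genotype cannot be told apart there, and which of several Hs-578T clones was sequenced is not given in the sources used here. MEK5DD stands for MEK5, the activator of ERK5, in a form that is always active, and how these cells were made is not given in the sources used here. RNA was taken at 70% confluence in every group. The labels give passages 29 and 30 for MDA-MB-231 parental controls, 7 and 8 for ERK5-ko and 10 and 11 for MEK5DD, and passages 83 and 84 for Hs-578T parental controls against 8 and 9 for both ERK5-ko and MEK5DD. Passage and label therefore cannot be told apart in any comparison with parental controls, and the parental controls of the lines differ in passage as well. The 2 libraries of a group carry consecutive passages, the earlier one always under the lower replicate number. Replicate number and passage therefore cannot be told apart within a group. The labels do not say whether these were independently kept cultures. The p values then measure only the spread between these libraries, which may be less than that of independent cultures.

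Eph receptors are receptor tyrosine kinases that bind ephrins held on the surface of a neighbouring cell, so that their signalling starts where cells touch. Ephrin-A ligands are tied to the membrane by a lipid (GPI) anchor and bind mainly EphA receptors, whereas ephrin-B ligands cross the membrane, bind mainly EphB receptors and also signal into the cell that carries them. In epithelia and tumours this system is known for setting cell repulsion, adhesion, migration and tissue boundaries, and in breast cancer EPHA2 and EPHB4 are the receptors studied most.

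Each value is an RPKM, reads on a gene per kilobase of its gene model and scaled to the reads of the library. The library totals that the values imply were between 20248162 and 27791195 reads. A read count of a gene is given below where it limits what a value can show, and intervals on reads cover counting error only. The parental pair of Hs-578T and its MEK5DD pair agreed less well than the other pairs, with a chi-square per degree of freedom of 30.7 and 42.2 against at most 8.92 in the other 4 groups. MAPK7 RNA was no lower under the ERK5-ko label than in parental controls, its log2 differences being 0.29 (adjusted p = 0.0709) for MDA-MB-231 and 0.26 (adjusted p = 0.0624) for Hs-578T by limma. The RNA thus gives no check of the knockout, and each direction given for these libraries rests on their label. By Western blot the paper reports that ERK5 protein was strongly reduced in the knockout cells of both lines. MAP2K5, which encodes MEK5, exceeded its parental level under the MEK5DD label by 3.77 (adjusted p = 3.31e-10) and 0.50 (adjusted p = 0.00492) in the same order. VIM, the mesenchymal filament gene, was at 1598 to 3492 RPKM in MDA-MB-231 and 3352 to 4067 in Hs-578T. ESR1 and PGR, the hormone receptor genes, stayed at or under 0.348 and CDH1 at or under 1.16. ERBB2 was at 36.9 to 56.8 and 27.8 to 43.8. EPCAM, an epithelial surface gene, was at 7.08 to 25.7 in MDA-MB-231 and 0.0365 to 0.0862 in Hs-578T, and KRT8 and KRT18 reached at least 27.9 in every library. CDH2 was at 0.230 to 0.524 in MDA-MB-231 and 135 to 248 in Hs-578T. Of the genes of other cell types, the leukocyte gene PTPRC stayed at or under 0.396, the endothelial gene PECAM1 was at 0.194 to 0.841 in MDA-MB-231 and 2.81 to 6.48 in Hs-578T, and the basal keratin KRT14 reached 0.0705 and 147 in the same order.

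EPHA2 (ENSG00000142627.12, chromosome 1, 16124337 to 16156087 of GRCh38), the receptor for which ephrin-A1 is the main ligand, was the most abundant member in all 12 libraries, per kilobase of gene model. It was at 309.6 and 324 RPKM in MDA-MB-231 parental controls, 279 and 291 in ERK5-ko and 305 and 317 in MEK5DD, and at 109.5 and 99.96, 115 and 123 and 74.0 and 101 in the same order in Hs-578T. The libraries of the 2 lines did not overlap, and EPHA2 made up between 82.0% and 96.9% of the summed RPKM of the EphA receptors in each library. In bulk libraries fewer cells with a transcript and less of it per cell cannot be told apart. EPHB4, the receptor known from veins, and EPHB2, a receptor that positions cells in the intestinal crypt, came next among the receptors in every group, EPHB4 before EPHB2 except in MDA-MB-231 MEK5DD. EPHA4, which binds ligands of both classes, came after these 3 in all 6 groups, at 8.21 to 10.5 RPKM in MDA-MB-231 and 6.18 to 17.0 in Hs-578T. In Hs-578T parental controls EPHA4 (10.1 and 13.4) and EPHB1 (8.69 and 8.03) did not overlap, while EPHB6 (6.54 and 6.72) and EPHA5 (4.59 and 7.40) did. Among the ligands the order differed between the lines. EFNB2 (17.0 and 16.7 RPKM) and EFNA5 (11.7 and 12.8) led in MDA-MB-231 parental controls, and EFNB1 (12.4 and 12.8), EFNA5 (8.80 and 13.8), EFNA4 (10.4 and 9.92) and EFNB3 (9.10 and 10.3) in those of Hs-578T, where EFNA5 overlapped each of the other 3. The deposited values use gene models close to the mean length of a gene's transcripts, and the longest transcript of a member is up to 4.12 times as long. With the longest transcript as length, chosen after seeing the data, EPHA2, EPHB4 and EPHB2 remained the first 3 receptors in all 6 groups. EPHB4 stood before EPHB2 in MDA-MB-231 MEK5DD too, EPHA4 no longer came next in the 3 Hs-578T groups, and EFNA5 went from rank 1 to 5 among the ligands in Hs-578T ERK5-ko and from rank 1 to 2 in MDA-MB-231 ERK5-ko.

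**Figure D1:**
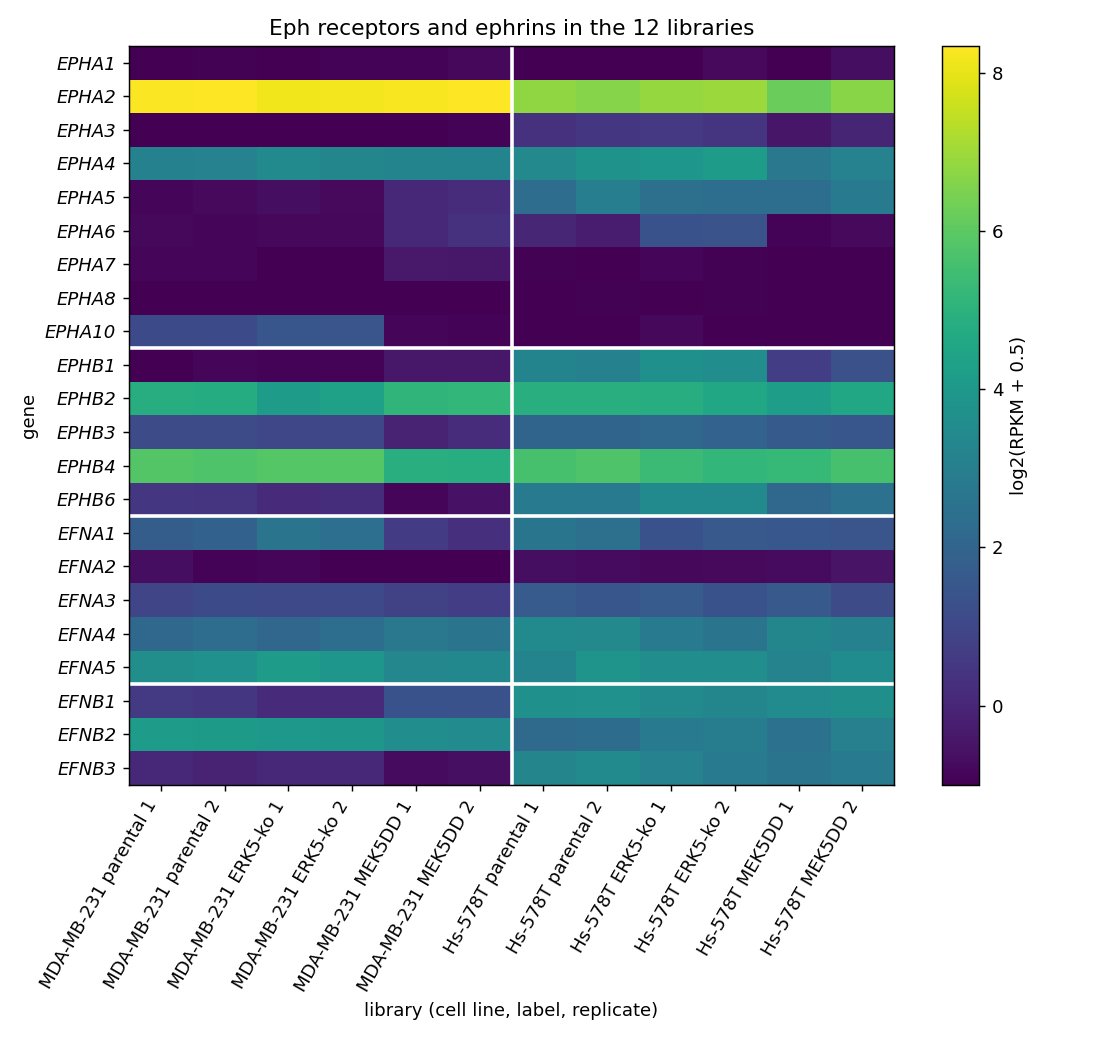
Levels of the 22 members (rows, grouped as EphA receptors, EphB receptors, ephrin-A and ephrin-B ligands from top to bottom) in the 12 libraries (columns, named by cell line, label and replicate), as log2(RPKM + 0.5) on a colour scale. EPHA2 is the brightest row in both lines, and EPHB1, EPHB6, EFNB1 and EFNB3 are brighter in the Hs-578T columns than in the MDA-MB-231 columns.

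Summed over a class, EphA receptors reached 319.6 and 334 RPKM in MDA-MB-231 parental controls and 125 and 122 in those of Hs-578T, of which EPHA2 carried most. The EphB sum in MDA-MB-231 was 86.4 and 83.5 in parental controls, 77.2 and 80.3 in ERK5-ko and 63.9 and 64.9 in MEK5DD, 3 groups that did not overlap. In Hs-578T the EphB sum was 97.5 and 100.1, 95.3 and 84.7 and 63.5 and 81.5 in the same order, again without overlap between groups. The ephrin-A sum was 20.02 and 22.2 in MDA-MB-231 parental controls against 28.2 and 25.5 in ERK5-ko and 17.9 and 17.2 in MEK5DD, so that the 2 altered groups lay on opposite sides of the controls. EFNA5 made up between 53.1% and 61.6% of this MDA-MB-231 sum. Its own log2 differences from parental controls, 0.37 in ERK5-ko and -0.32 in MEK5DD, did not pass the test described below. In Hs-578T it was 27.8 and 31.2 in parental controls, 22.8 and 21.9 in ERK5-ko and 22.8 and 23.6 in MEK5DD, both below the controls. The ephrin-B sum was 18.5 and 17.98, 16.5 and 16.03 and 13.7 and 12.9 in MDA-MB-231 and 25.7 and 27.5, 25.5 and 23.1 and 21.5 and 26.8 in Hs-578T, again in the order parental, ERK5-ko and MEK5DD. These sums are descriptions, since an exact permutation test of 2 libraries against 2 cannot give a two-sided p below 0.333.

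**Figure D2:**
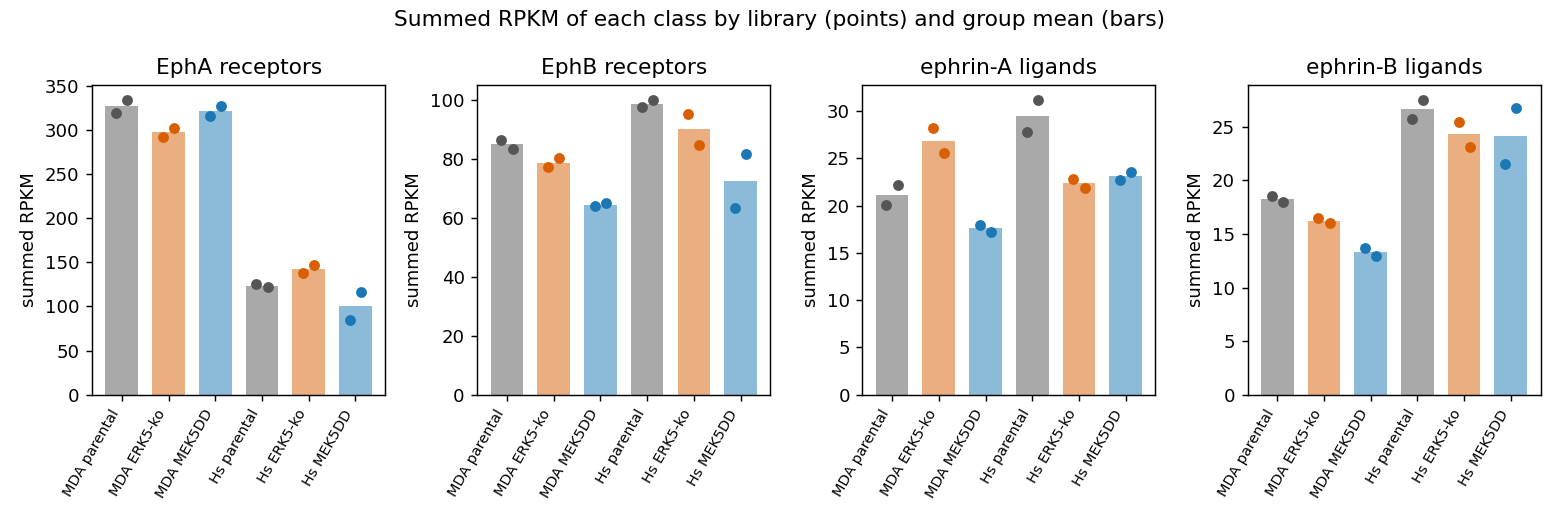
Summed RPKM of the members of each class by group, with 1 point per library and a bar at the mean of the 2 libraries. The EphA sums of MDA-MB-231 lie above those of Hs-578T in all libraries, and the ephrin-A sum of MDA-MB-231 ERK5-ko lies above its parental controls while that of Hs-578T ERK5-ko lies below.

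EFNA4, EFNA3 and EFNA1, ephrin-A ligands, are neighbours in this order on chromosome 1 and on 1 strand. EFNA1 was at 0.700 to 5.504 RPKM in MDA-MB-231 and 2.07 to 5.71 in Hs-578T, EFNA4 at 3.72 to 6.13 and 5.61 to 10.4 and EFNA3 at 1.11 to 1.63 and 1.77 to 2.73. EFNA1 passed in all 4 comparisons with parental controls and EFNA3 in none of them, with values given under each comparison, although EFNA3 passed as lower in MDA-MB-231 MEK5DD on the libraries of that line alone (-0.27, adjusted p = 0.0310). EFNA3 and EFNA4 overlap a read-through gene of the same strand in the deposited table, which reached 2.14 RPKM, and how reads shared with it were assigned was not tested. The sequences are shown because they set the starts of these neighbours side by side. Each line gives the 250 bases before the RefSeq start of the gene (GRCh38.p14, RefSeq) from 5′ to 3′, with the GC box (GGGCGG on either strand, overlapping matches counted apart) in capitals.
EFNA4, chr1:155063490-155063739, plus strand: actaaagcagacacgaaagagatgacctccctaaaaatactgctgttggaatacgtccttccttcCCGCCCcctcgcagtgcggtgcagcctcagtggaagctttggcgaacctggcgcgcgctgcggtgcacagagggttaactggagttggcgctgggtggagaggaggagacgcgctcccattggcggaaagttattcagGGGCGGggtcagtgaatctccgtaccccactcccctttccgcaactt
EFNA3, chr1:155078587-155078836, plus strand: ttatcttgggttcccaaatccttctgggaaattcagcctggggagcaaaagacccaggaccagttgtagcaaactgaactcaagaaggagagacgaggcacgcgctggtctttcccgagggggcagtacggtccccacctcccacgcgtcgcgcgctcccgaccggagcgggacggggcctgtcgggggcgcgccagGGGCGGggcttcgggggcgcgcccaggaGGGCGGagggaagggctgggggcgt
EFNA1, chr1:155127626-155127875, plus strand: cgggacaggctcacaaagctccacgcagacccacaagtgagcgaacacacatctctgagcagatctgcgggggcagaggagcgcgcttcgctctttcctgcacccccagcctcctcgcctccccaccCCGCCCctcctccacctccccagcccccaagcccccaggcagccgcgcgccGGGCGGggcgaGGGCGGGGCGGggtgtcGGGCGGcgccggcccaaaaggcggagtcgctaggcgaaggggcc
EFNA1 holds 5 matches, EFNA3 2 and EFNA4 2. The table of starts holds 20 of the 22 members (all but EPHA10 and EFNB3), and 19 of these 20 hold a GC box, against 42.6% of all 35116 entries, while the median GC content of the window was 68.6% over members and 58.0% over all entries. No member held the MEF2 motif (CTA and TAG with any 4 bases between, on either strand), found in 2.36% of entries, or TGANTCA, the motif of AP-1, found in 6.57%. CAGGTG, an E-box bound by ZEB and SNAI factors, stood before EFNB2, EPHA1, EPHA6 and EPHB2, 4 of 20, against 17.5% of entries. A match is a description of letters, and none of them was tested as a site.

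Each member's differences were tested with limma on log2(RPKM + 0.5) over the 13737 protein-coding genes that reached 0.5 RPKM in 2 or more libraries, with Benjamini-Hochberg adjustment within each comparison, and a gene passed at an adjusted p under 0.05. On this scale a difference understates the fold of a gene with low RPKM. Of the 22 members 18 were tested. The 4 others were EPHA1, EPHA7, EPHA8 and EFNA2, which never exceeded 0.275 RPKM in a library. EPHA1 had at most 4 reads, EPHA8 at most 1 read and EFNA2 at most 4 reads in a library, while EPHA7 had 28 and 31 reads in MDA-MB-231 MEK5DD and at most 7 elsewhere. Among the tested members 10 were at or above 0.5 RPKM in all 12 libraries. The other 8 (EPHA3, EPHA5, EPHA6, EPHA10, EPHB1, EPHB3, EPHB6 and EFNB3) entered through some libraries only, and those low in whole groups, such as EPHA3, EPHA6 and EPHA10, had to differ between groups in order to be tested.

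In MDA-MB-231 parental controls EPHA2, EPHA10 and EFNB2 were higher than in Hs-578T parental controls, and 12 members were lower, among them EPHB1, EPHA5, EFNB3, EFNB1 and EPHB6. The 3 higher members stand beside 46.0% of all tested genes that were higher, and the 12 lower ones (66.7% of 18) beside 31.3% that were lower. Under median-ratio scaling, where EPHB2 passed as lower too, 37.0% of all genes were higher and 38.9% lower, and the median of all tested genes moved from 0.19 to -0.02. The median of the tested members was -0.71.

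EPHA10 (ENSG00000183317.16, chromosome 1, 37713880 to 37765133), a receptor whose kinase domain is inactive, had 78 and 88 reads in the MDA-MB-231 parental controls and none in those of Hs-578T, at least 45.9-fold higher against a floor of 3 reads over the group. EPHA3, a receptor of the EphA class, had 0 reads in both MDA-MB-231 parental controls and 65 and 69 in those of Hs-578T, at least 53.8-fold lower against the same floor. EPHB1 (ENSG00000154928.16, chromosome 3, 134597801 to 135260467), an axon guidance receptor, had 0 and 2 reads against 228 and 191, which is 252-fold lower (95% counting interval 69.5 to 2091). Thus 1 of these 3 receptors was found on the MDA-MB-231 side and the other two on the Hs-578T side. EFNB1 (ENSG00000090776.5, chromosome X, 68828997 to 68842147), an X-linked ligand of EphB receptors, was at 1.003 and 0.881 RPKM in MDA-MB-231 and 12.4 and 12.8 in Hs-578T, a log2 difference of -3.19 (SE 0.108, limma adjusted p = 1.29e-10), or -3.38 relative to the median of all genes. EFNB2 (ENSG00000125266.6, chromosome 13, 106489731 to 106535114), the arterial ligand of EPHB4, went the other way at 17.0 and 16.7 against 4.19 and 4.38, a difference of 1.86 (SE 0.153, limma adjusted p = 4.33e-07), or 1.66 relative to that median. EPHA2 differed by 1.59 (SE 0.126, limma adjusted p = 2.99e-07), or 1.40 relative to it. EPHA5 was at 0.0587 and 0.0870 RPKM in MDA-MB-231 and 4.59 and 7.40 in Hs-578T, EFNB3 at 0.553 and 0.436 and 9.10 and 10.3 and EPHB6 at 0.883 and 0.830 and 6.54 and 6.72, each without overlap. Of the 18 tested members 17 did not overlap between these controls. The share over all tested genes is not given for this count, so it is no result about the family. EPHA6 had 3 and 2 reads against 19 and 11, which is 7.23-fold lower (95% counting interval 2.78 to 23.9). The other lower members with their log2 differences were EPHA5 at -3.47, EFNB3 at -3.36, EPHB6 at -2.39, EFNA4 at -1.18, EPHB3 at -0.86, EFNA1 at -0.73, EPHA6 at -0.69, EFNA3 at -0.57 and EPHA4 at -0.47. EPHB2, EPHB4 and EFNA5 did not pass, with differences of -0.08, 0.10 and 0.14. EPHA4 did not pass without either MDA-MB-231 parental library or without Hs-578T parental replicate 2 (-0.48 to -0.27, adjusted p 0.0619 to 0.168), and EFNA5 passed without Hs-578T parental replicate 2 (0.45, adjusted p 0.0251). Under median-ratio scaling EPHB2 passed as lower in MDA-MB-231 (-0.31, adjusted p = 0.0479).

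To follow loss of the kinase, libraries labelled ERK5-ko were set against the parental controls of their line. In MDA-MB-231 ERK5-ko, EFNA1 and EPHA10 rose while EPHB2 and EFNB1 fell, and the remaining 14 tested members did not pass. The 2 higher members (11.1% of 18) stand beside 6.91% of all tested genes and the 2 lower ones beside 10.4%, or 9.18% and 8.20% under median-ratio scaling, where EFNB1 did not pass. Shares of members this close to the background are no result about the family. Of the 12 marker genes 9 were tested here, and 3 rose and 1 fell by limma. In RPKM of parental controls against ERK5-ko they were KRT18 at 356 and 384 against 692 and 671, PECAM1 at 0.694 and 0.841 against 0.276 and 0.2498, KRT8 at 677 and 744 against 1142 and 1146 and EPCAM at 18.4 and 19.5 against 24.4 and 25.7. Their part in the differences of the members was not tested. The median log2 difference was 0.03 over the members and -0.04 over all tested genes.

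EFNA1 (ENSG00000169242.11, chromosome 1, 155127460 to 155134857), the ligand of EPHA2, went from 2.86 and 3.21 RPKM in MDA-MB-231 parental controls to 5.504 and 4.76 in ERK5-ko, without overlap, a log2 difference of 0.67 (SE 0.146, limma adjusted p = 0.00901). EPHB2 (ENSG00000133216.16, chromosome 1, 22710839 to 22921500) went from 27.5 and 26.9 to 17.4 and 20, a difference of -0.53 (SE 0.132, limma adjusted p = 0.0179). EPHA10 went from 1.66 and 1.66 to 2.33 and 2.27, a difference of 0.37 (adjusted p = 0.0260), and EFNB1 from 1.003 and 0.881 to 0.603 and 0.617, a difference of -0.38 (adjusted p = 0.0345), both also without overlap. Of the 18 tested members 12 did not overlap in this comparison, and without the share over all tested genes the lack of overlap adds no support. Among the members that did not pass, EPHA2 differed by -0.15, EPHB4 by 0.07, EFNA5 by 0.37 and EFNB2 by -0.15. Without 1 of the libraries compared each call was lost in some case. EPHA10 (0.36 to 0.39, adjusted p 0.0908 to 0.128) and EFNB1 (-0.44 to -0.32, adjusted p 0.0592 to 0.235) were lost without any of the 4, and EFNB1 also without either MDA-MB-231 MEK5DD library. EPHB2 was lost without either parental library or ERK5-ko replicate 1 (-0.55 to -0.43, adjusted p 0.0916 to 0.134), and EFNA1 without parental replicate 1 or ERK5-ko replicate 1 (0.57 to 0.60, adjusted p 0.0812 to 0.0883). A pseudocount of 0.1 or limma voom ended the call of EPHA10 (0.45 to 0.47, adjusted p 0.188 to 0.268), and a pseudocount of 1, either other scaling or voom that of EFNB1 (-0.61 to -0.26, adjusted p 0.0541 to 0.106).

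In Hs-578T ERK5-ko, the receptors EPHA6, EPHB6 and EPHB1 and the ligand EFNB2 rose, and the ligands EFNA1, EFNA4 and EFNB1 and the receptor EPHB4 fell. The 4 higher and the 4 lower members (22.2% of 18 each) stand beside 19.7% of all tested genes that were higher and 19.7% that were lower. Of the 12 marker genes 9 were tested here, and 3 rose and 2 fell by limma. In RPKM of parental controls against ERK5-ko they were KRT14 at 38.7 and 35.7 against 5.20 and 5.88, KRT18 at 213 and 141 against 547 and 596, CDH1 at 0.119 and 0.218 against 0.930 and 1.16, KRT8 at 50.7 and 46.9 against 29.7 and 27.9 and CDH2 at 135 and 146 against 219 and 248. Their part in the differences of the members was not tested. The median log2 difference was 0.04 over the members and 0.01 over all tested genes.

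EPHA6 (ENSG00000080224.17, chromosome 3, 96814581 to 97752460), a receptor best known from the nervous system, went from 0.491 and 0.313 RPKM in Hs-578T parental controls to 2.02 and 2.12 in ERK5-ko. This is 19 and 11 reads against 90 and 87, and the log2 difference was 1.52 (SE 0.126, limma adjusted p = 5.39e-06), the largest of any member in this comparison. EPHA6 reached 0.5 RPKM only in these ERK5-ko libraries and in MDA-MB-231 MEK5DD. It was thus tested through groups where it is high, and its p value is no separate support. EPHB6 (ENSG00000106123.11, chromosome 7, 142855061 to 142871094), a receptor without kinase activity, went from 6.54 and 6.72 to 10.3 and 10.6, a difference of 0.62 (SE 0.136, limma adjusted p = 0.00403). EPHB1 went from 8.69 and 8.03 to 12.4 and 11.4, a difference of 0.49 (adjusted p = 0.0385), and EFNB2 from 4.19 and 4.38 to 6.78 and 7.16, a difference of 0.64 (adjusted p = 0.00650). Of the 18 tested members 12 did not overlap their controls, these 4 among them, so the lack of overlap adds no support. EFNA1 went from 5.71 and 5.02 to 2.07 and 2.56, a difference of -1.06 (SE 0.146, limma adjusted p = 0.000204). EFNA4 (ENSG00000243364.7, chromosome 1, 155063731 to 155069553) went from 10.4 and 9.92 to 6.56 and 5.61, a difference of -0.70 (SE 0.131, limma adjusted p = 0.00157). Among the smaller falls, EPHB4 (ENSG00000196411.9, chromosome 7, 100802565 to 100827521) went from 49.2 and 53.6 to 40.7 and 36.4, a difference of -0.41 (adjusted p = 0.0149), and EFNB1 from 12.4 and 12.8 to 10.4 and 9.23, a difference of -0.35 (adjusted p = 0.0231). EPHA6, EFNA1 and EFNA4 passed in all 21 refits with another setting or without 1 library, which for EPHA6 is no separate support either. EPHA4 (10.1 and 13.4 against 14.6 and 17.0) did not pass at 0.42 (adjusted p = 0.0546), and it did once replicate number entered as a block (0.42, adjusted p = 0.00526), as it did without Hs-578T parental replicate 2 or either MEK5DD library (0.42 to 0.62, adjusted p 0.0164 to 0.0235). The call of EPHB1 was lost without any 1 library other than the 2 Hs-578T MEK5DD libraries (0.43 to 0.54, adjusted p 0.0522 to 0.161). That of EPHB4 was lost without parental or ERK5-ko replicate 2 (-0.35 to -0.33, adjusted p 0.0702 to 0.127). That of EFNB1 was lost without either parental library or ERK5-ko replicate 2 (-0.37 to -0.27, adjusted p 0.0598 to 0.161) and that of EFNB2 without ERK5-ko replicate 2 (0.61, adjusted p 0.0554). EPHA5 passed as lower without parental replicate 1 (-0.57, adjusted p 0.0257), and EFNB3 without ERK5-ko replicate 1 or either MEK5DD library (-0.50 to -0.35, adjusted p 0.0362 to 0.0400). EFNB3 also passed as lower with a pseudocount of 1, with either other scaling or by voom (-0.39 to -0.33, adjusted p 0.0271 to 0.0433), and EPHA4 passed as higher with quantile normalization and by voom. Fitted on the Hs-578T libraries alone, EPHB1, EPHB4, EFNB1 and EFNB2 did not pass, and with a pseudocount of 0.1 neither EPHB6 nor EPHB1 did. The call of EPHB1 also ended with no filter on low values (0.49, limma adjusted p = 0.0637). It ended with quantile normalization too (0.46, limma adjusted p = 0.0630).

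The effect of the ERK5-ko label differed between the lines for 6 of 18 members, beside 39.8% of all tested genes. EFNA1 rose in MDA-MB-231 by 0.67 and changed by -1.06 in Hs-578T, a difference between the lines of 1.73 (SE 0.206, limma adjusted p = 8.22e-05), and the 2 lines moved it in opposite directions. EPHA6 differed by 0.05 without passing in MDA-MB-231 and by 1.52 in Hs-578T, a difference of -1.47 (SE 0.178, limma adjusted p = 8.97e-05), with 3 and 3 reads in MDA-MB-231 ERK5-ko. As EPHA6 was tested only through groups where it is high, this p value is no separate support. EPHB6 at -0.87 (adjusted p = 0.00434), EFNB2 at -0.79 (adjusted p = 0.0139), EFNA4 at 0.68 (adjusted p = 0.0139) and EPHB4 at 0.48 (adjusted p = 0.0347) also differed, each with a change that passed in Hs-578T only. The difference of EPHB4 was lost without any of 8 libraries (all but Hs-578T parental replicate 1, Hs-578T ERK5-ko replicate 1 and both Hs-578T MEK5DD libraries) at 0.40 to 0.51, adjusted p 0.0537 to 0.131. That of EFNA4 was lost without MDA-MB-231 parental replicate 1 or ERK5-ko replicate 2 of either line at 0.54 to 0.58, adjusted p 0.0635 to 0.0656. That of EFNB2 was lost without Hs-578T ERK5-ko replicate 2 at -0.76, adjusted p 0.0550. EPHA2 and EPHB1 passed without either Hs-578T MEK5DD library, and EPHA5 and EFNA5 without Hs-578T parental replicate 1, with log2 differences of -0.34, -0.47, 0.67 and 0.63. The same single parental pair serves as control for ERK5-ko and MEK5DD in each line, so the values of these comparisons are given side by side and are not compared as independent.

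**Figure D3:**
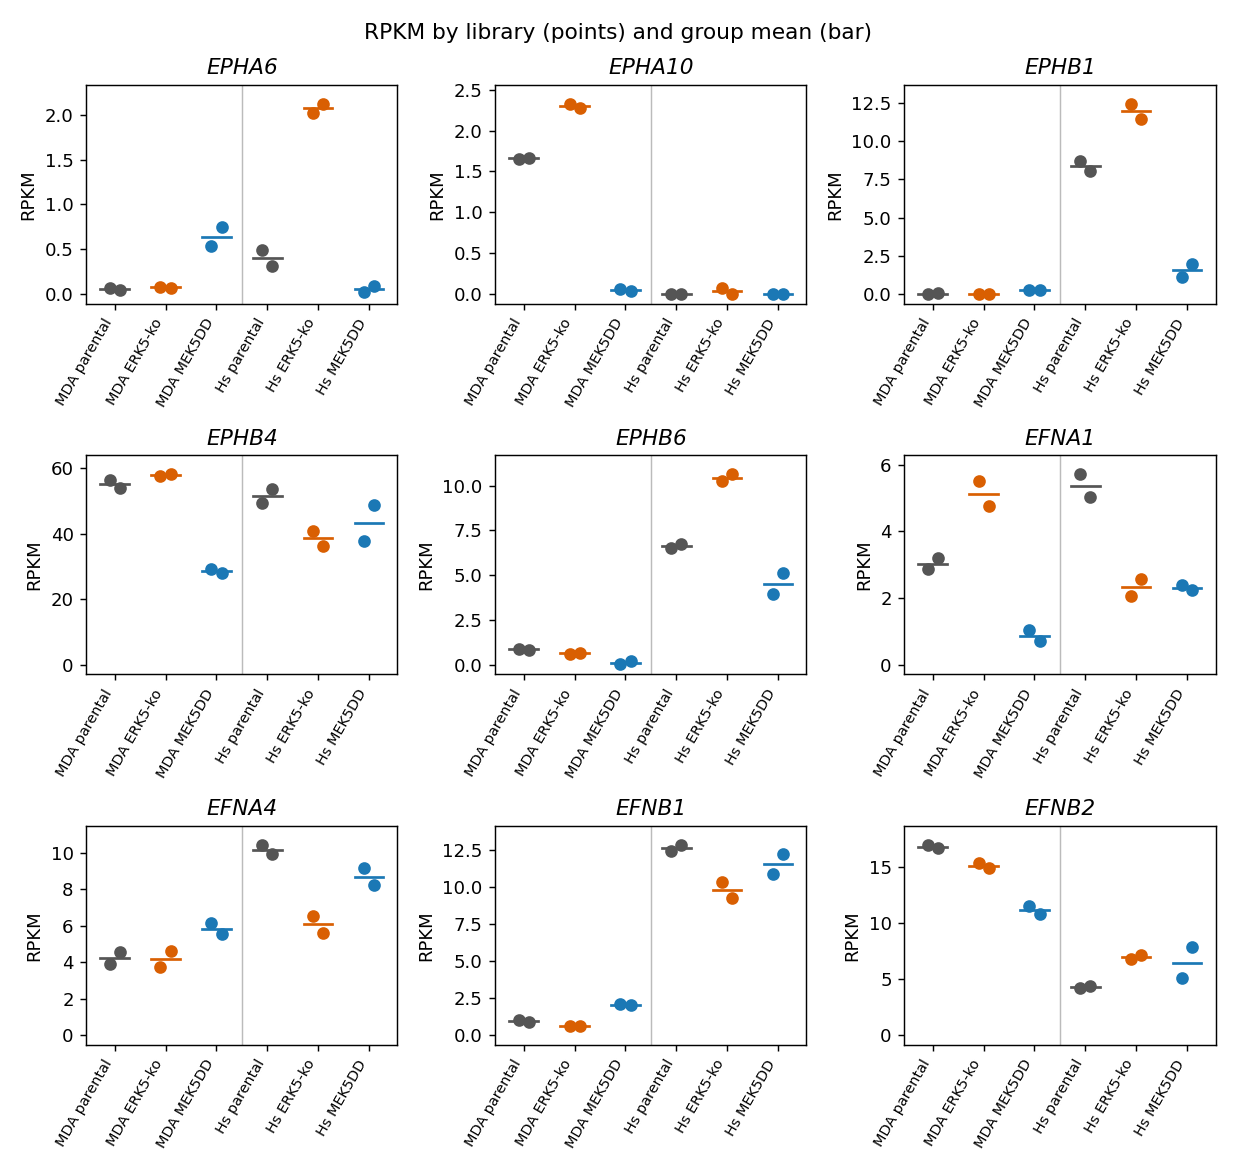
RPKM of 9 members in each library (points, 2 per group) with the group mean (bar), for MDA-MB-231 left and Hs-578T right of the line in each panel, which has its own axis. EFNA1 is higher in MDA-MB-231 ERK5-ko and lower in Hs-578T ERK5-ko than in parental controls, and EPHA10 is near 0 in MDA-MB-231 MEK5DD and in all Hs-578T libraries.

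Libraries labelled MEK5DD were set against the same parental controls to follow the activating intervention, a constantly active upstream kinase. In MDA-MB-231 MEK5DD the receptors EPHA10, EPHB6, EPHB3 and EPHB4 fell together with the ligands EFNA1, EFNB3 and EFNB2, while the receptors EPHA6, EPHA5 and EPHB1 and the ligands EFNB1 and EFNA4 rose. The 5 higher members (27.8% of 18) stand beside 17.5% of all tested genes and the 7 lower ones (38.9%) beside 23.8%, or 23.0% and 20.5% under quantile normalization, where EPHB2 passed as higher too. Of the 12 marker genes 9 were tested here, and 1 rose and 4 fell by limma. In RPKM of parental controls against MEK5DD they were EPCAM at 18.4 and 19.5 against 7.79 and 7.08, CDH1 at 0.640 and 0.650 against 0.0376 and 0, VIM at 1609.5 and 1751 against 3418 and 3492, PECAM1 at 0.694 and 0.841 against 0.194 and 0.309 and ERBB2 at 49.2 and 49.2 against 36.9 and 40.8. Their part in the differences of the members was not tested. The median log2 difference was -0.15 over the members and -0.01 over all tested genes.

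EPHA10 went from 1.66 and 1.66 RPKM in MDA-MB-231 parental controls to 0.0655 and 0.0379 in MEK5DD. With 3 and 2 reads left it was 32.7-fold lower (95% counting interval 13.8 to 102), and the log2 difference was -1.97 (SE 0.101, limma adjusted p = 4.82e-08). EPHA10 was tested only through the MDA-MB-231 parental and ERK5-ko libraries, where it is high, so this p value is no separate support. EFNA1 went from 2.86 and 3.21 to 1.03 and 0.700, a difference of -1.38 (SE 0.146, limma adjusted p = 1.71e-05). The kinase-dead receptor EPHB6 went from 0.883 and 0.830 to 0.0513 and 0.178, or 53 and 56 reads against 3 and 12, which is 7.17-fold lower (95% counting interval 4.16 to 13.2), with a log2 difference of -1.15 (SE 0.136, limma adjusted p = 4.23e-05). EPHB3 (ENSG00000182580.2, chromosome 3, 184561784 to 184582409), which with EPHB2 positions crypt cells and lies within a longer entry of EIF2B5 on the same strand, went from 1.73 and 1.73 to 0.433 and 0.647, a difference of -1.11 (SE 0.123, limma adjusted p = 2.47e-05). EPHB4 went from 56.3 and 53.9 to 29.1 and 27.98, a difference of -0.94 (SE 0.115, limma adjusted p = 5.75e-05), and with the deposited lengths EPHB2 stood above EPHB4 in this group only. EFNB2, the ligand of EPHB4, went from 17.0 and 16.7 to 11.5 and 10.8, a difference of -0.57 (adjusted p = 0.0109), and EFNB3 from 0.553 and 0.436 to 0.103 and 0.146, a difference of -0.67 (adjusted p = 0.00213). Of the 18 tested members 17 did not overlap between the groups, these 7 among them, so the lack of overlap adds no support. In the other direction EFNB1 went from 1.003 and 0.881 to 2.07 and 2.04, a difference of 0.83 (SE 0.108, limma adjusted p = 9.29e-05). EPHA6 went from 0.0717 and 0.0425 to 0.540 and 0.745 (3 and 2 reads against 22 and 35), which is 11.6-fold higher (95% counting interval 4.67 to 37.0), a log2 difference of 1.03 (adjusted p = 5.40e-05). EPHA6 was tested only through these MEK5DD libraries and Hs-578T ERK5-ko, so this p value is no separate support. EPHA5 (ENSG00000145242.13, chromosome 4, 65319563 to 65670495), another receptor of axon guidance, went from 0.0587 and 0.0870 to 0.530 and 0.640, a difference of 0.92 (adjusted p = 0.00239). EPHB1 had 0 and 2 reads against 7 and 8, which is 7.60-fold higher (95% counting interval 1.77 to 68.5), and differed by 0.50 (adjusted p = 0.0321), and EFNA4 went from 3.93 and 4.54 to 6.13 and 5.54, a difference of 0.42 (adjusted p = 0.0235). EPHA2 differed by -0.03 (adjusted p = 0.899) and did not pass. EPHB2 (27.5 and 26.9 against 34.1 and 35.8) did not pass at 0.35 (adjusted p = 0.0508), and it did once replicate number entered as a block (0.35, adjusted p = 0.0472), on the MDA-MB-231 libraries alone (0.35, adjusted p = 0.0171), under 5 other settings and without any of the 4 Hs-578T libraries labelled ERK5-ko or MEK5DD (0.35, adjusted p 0.0165 to 0.0479). Calls lost by leaving out a library were those of EPHB1 without any of the 4 compared (0.42 to 0.59, adjusted p 0.0636 to 0.179) and of EFNA4 without parental replicate 1 or either MEK5DD library (0.33 to 0.49, adjusted p 0.0542 to 0.175). That of EFNB2 was lost without either parental library or MEK5DD replicate 2 (-0.58 to -0.52, adjusted p 0.0516 to 0.0755). The other 9 calls were made in all 21 refits. Among them EPHA10 and EPHA6 were tested only through groups where they are high, so for them this adds no support. A pseudocount of 1 or no filter on low values also ended the call of EPHB1, and the MDA-MB-231 libraries alone that of EFNA4.

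In Hs-578T MEK5DD 9 members fell and 1 rose. All 4 EphB receptors that passed (EPHB1, EPHB6, EPHB2 and EPHB3) and all 3 EphA receptors that passed (EPHA6, EPHA4 and EPHA3) were lower, together with EFNA1 and EFNB3, and EFNB2 was higher. The 9 lower members of 18 stand beside 17.0% of all tested genes that were lower, and the 1 higher member beside 6.44%. Under median-ratio scaling, where EPHB2 and EPHB3 did not pass, 11.9% of all genes were lower and 9.39% higher. Of the 12 marker genes 9 were tested here, and 2 rose and 2 fell by limma. In RPKM of parental controls against MEK5DD they were KRT14 at 38.7 and 35.7 against 147 and 118, PECAM1 at 5.39 and 5.72 against 2.81 and 2.96, KRT8 at 50.7 and 46.9 against 71.0 and 61.4 and ERBB2 at 38.9 and 43.8 against 27.8 and 35.2. Their part in the differences of the members was not tested. The median log2 difference was -0.36 over the members and -0.08 over all tested genes.

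EPHB1 went from 8.69 and 8.03 RPKM in Hs-578T parental controls to 1.119 and 1.995 in MEK5DD, which is 228 and 191 reads against 26 and 47, and its log2 difference of -2.14 (SE 0.168, limma adjusted p = 1.24e-05) was the largest of any member in this comparison. EFNA1 went from 5.71 and 5.02 to 2.38 and 2.23, a difference of -1.06 (SE 0.146, limma adjusted p = 0.000528). EPHA6 went from 19 and 11 reads to 1 and 3, which is 7.02-fold lower (95% counting interval 2.47 to 27.4), with a log2 difference of -0.69 (adjusted p = 0.00283). These 3 members passed in all 21 refits. EPHA4 (ENSG00000116106.11, chromosome 2, 221418027 to 221574202) went from 10.1 and 13.4 to 6.18 and 8.41, a difference of -0.65 (adjusted p = 0.0130), and EPHA3 (ENSG00000044524.10, chromosome 3, 89107524 to 89482134) from 0.749 and 0.876 to 0.247 and 0.475, a difference of -0.62 (adjusted p = 0.00529). EPHA3 was tested only through the Hs-578T parental and ERK5-ko libraries, where it is high, so its p value is no separate support. EFNB3 (ENSG00000108947.4, chromosome 17, 7705202 to 7711378), a ligand that marks the midline in the developing nervous system, went from 9.10 and 10.3 to 5.57 and 6.76, a difference of -0.62 (adjusted p = 0.00783). Smaller falls were those of EPHB6 from 6.54 and 6.72 to 3.94 and 5.12, -0.51 (adjusted p = 0.0193), of EPHB2 from 29.5 and 28.2 to 17.9 and 23.3, -0.49 (adjusted p = 0.0214), and of EPHB3 from 3.55 and 3.55 to 2.60 and 2.31, -0.45 (adjusted p = 0.0208). EFNB2 went from 4.19 and 4.38 to 5.07 and 7.83, a difference of 0.51 (adjusted p = 0.0331), the 2 MEK5DD libraries being far apart. Of the 18 tested members 13 did not overlap between the groups, the 10 that passed among them. The share over all tested genes is not given here, so this adds no support. The call of EFNB2 was lost without any 1 library except Hs-578T MEK5DD replicate 1 (0.22 to 0.54, adjusted p 0.0508 to 0.132), and by Hs-578T libraries alone it did not pass. Those of EPHB2 (-0.52 to -0.30, adjusted p 0.0519 to 0.119) and EPHB6 (-0.53 to -0.34, adjusted p 0.0524 to 0.110) were lost without either parental library or MEK5DD replicate 1. Lost too were those of EPHB3 without either parental library or MEK5DD replicate 2 (-0.45 to -0.38, adjusted p 0.0632 to 0.0660) and of EPHA4 without parental replicate 2 or MEK5DD replicate 1 (-0.46 to -0.44, adjusted p 0.0787 to 0.0894). Without MEK5DD replicate 2, EPHA2 (-0.50, adjusted p 0.00267) and EPHB4 (-0.44, adjusted p 0.00716) passed as lower. Fitted on the Hs-578T libraries alone, 3 of the 9 lower members passed (EPHA6, EPHB1 and EFNA1). Median-ratio scaling ended the calls of EPHB2 and EPHB3, and a pseudocount of 0.1 those of EPHB3 and EPHB6. Quantile normalization also ended that of EPHB2 (-0.38, limma adjusted p = 0.0539), and no filter on low values that of EFNB2 (0.51, limma adjusted p = 0.0578).

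**Figure D4:**
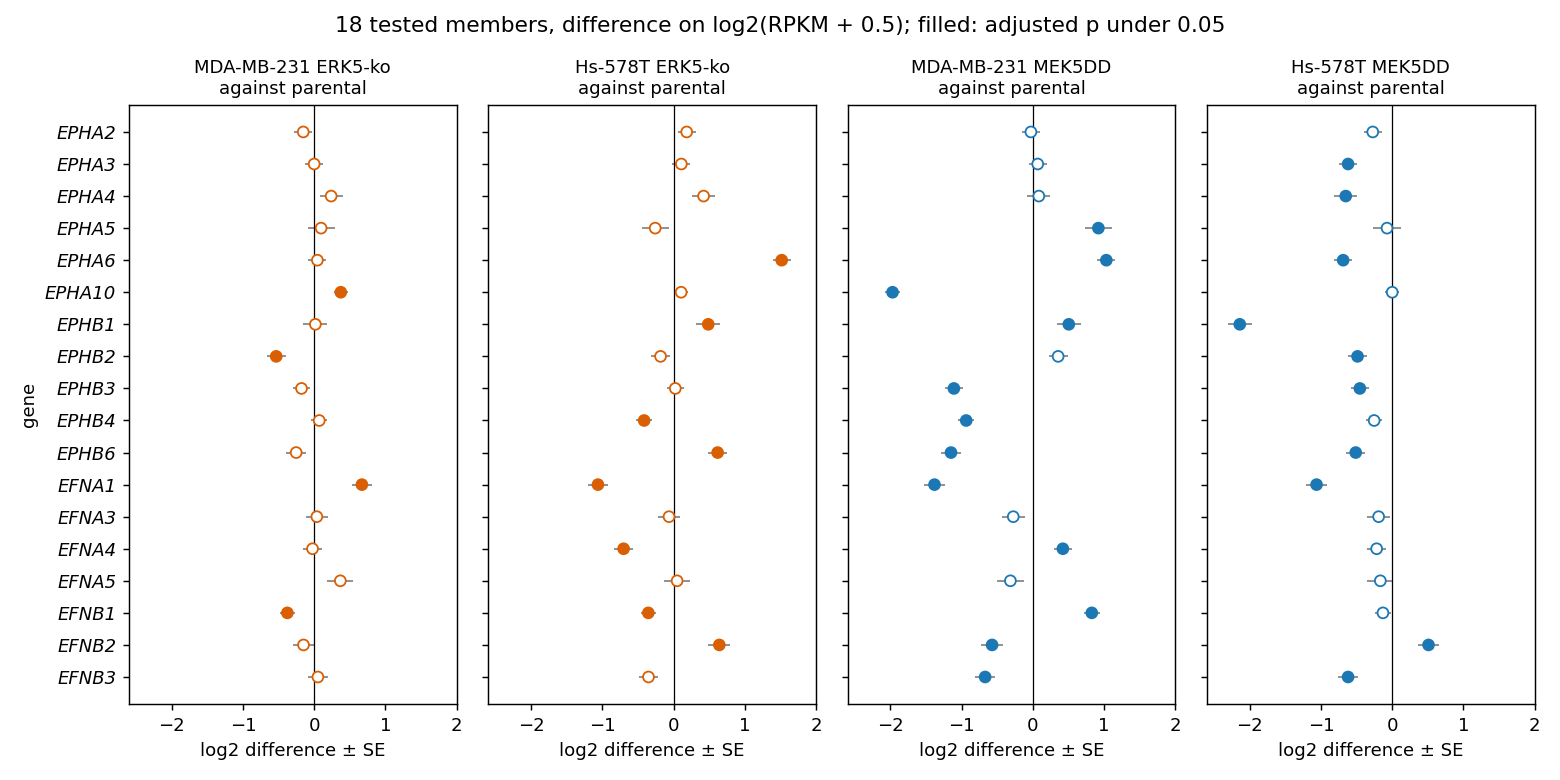
Log2 differences from the parental controls of the line, on log2(RPKM + 0.5), with their standard errors for the 18 tested members in the 4 comparisons with parental controls. Filled points passed at an adjusted p under 0.05, 4, 8, 12 and 10 members from left to right.

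The MEK5DD effect differed between the lines for 13 of 18 members, beside 39.6% of all tested genes. EPHB1 differed most, with 0.50 in MDA-MB-231 on a few reads and -2.14 in Hs-578T, a difference of 2.64 (SE 0.238, limma adjusted p = 9.51e-06). EPHA10 differed by -1.97 (SE 0.143, limma adjusted p = 1.76e-06) and had no reads in the Hs-578T parental and MEK5DD libraries. Its difference between the lines therefore only restates the MDA-MB-231 value, and its p value is no separate support either. EPHA6 rose in MDA-MB-231 by 1.03 and fell in Hs-578T, where the difference was -0.69, a difference between the lines of 1.72 (SE 0.178, limma adjusted p = 2.48e-05). This p value is no separate support, since EPHA6 was tested only through groups where it is high. EFNB2 also moved in opposite directions, -0.57 against 0.51, a difference of -1.08 (SE 0.217, limma adjusted p = 0.00232). EPHB2 had a difference of 0.35 without passing in MDA-MB-231 against -0.49 in Hs-578T, a difference of 0.84 (adjusted p = 0.00434). EFNB1, EPHA5 and EFNA4 passed as higher in MDA-MB-231 and not in Hs-578T, and their differences were 0.96 (adjusted p = 0.000545), 0.99 (adjusted p = 0.0128) and 0.64 (adjusted p = 0.0180). EFNA1 fell in both lines (-1.38 and -1.06), and its difference between them did not pass at -0.32 (adjusted p = 0.246). That of EFNB3 was -0.05 (adjusted p = 0.859), and it passed with a pseudocount of 0.1 or by voom (-1.27 to -0.75, adjusted p 0.0348 to 0.0370), so that it depends on the pseudocount. Differences were lost by leaving out a library for EPHA4 without any parental or MEK5DD library other than Hs-578T parental replicate 1 and MEK5DD replicate 2 (0.53 to 0.75, adjusted p 0.0590 to 0.0749). They were also lost for EPHA5 without MDA-MB-231 MEK5DD replicate 2 (0.92, adjusted p 0.0513) and for EPHB3 without MDA-MB-231 MEK5DD replicate 1 (-0.51, adjusted p 0.0572). EPHB6 was lost without either MDA-MB-231 parental library, MDA-MB-231 MEK5DD replicate 1 or Hs-578T MEK5DD replicate 2 (-0.66 to -0.47, adjusted p 0.0509 to 0.0985) and EFNA4 without MDA-MB-231 parental or MEK5DD replicate 1 (0.55 to 0.57, adjusted p 0.0737 to 0.0813). A pseudocount of 1 ended the calls of EPHA5 (0.63, adjusted p 0.0546) and EPHB6 (-0.27, adjusted p 0.190). EPHA2 passed without Hs-578T MEK5DD replicate 2 (0.47, adjusted p 0.00787).

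**Figure D5:**
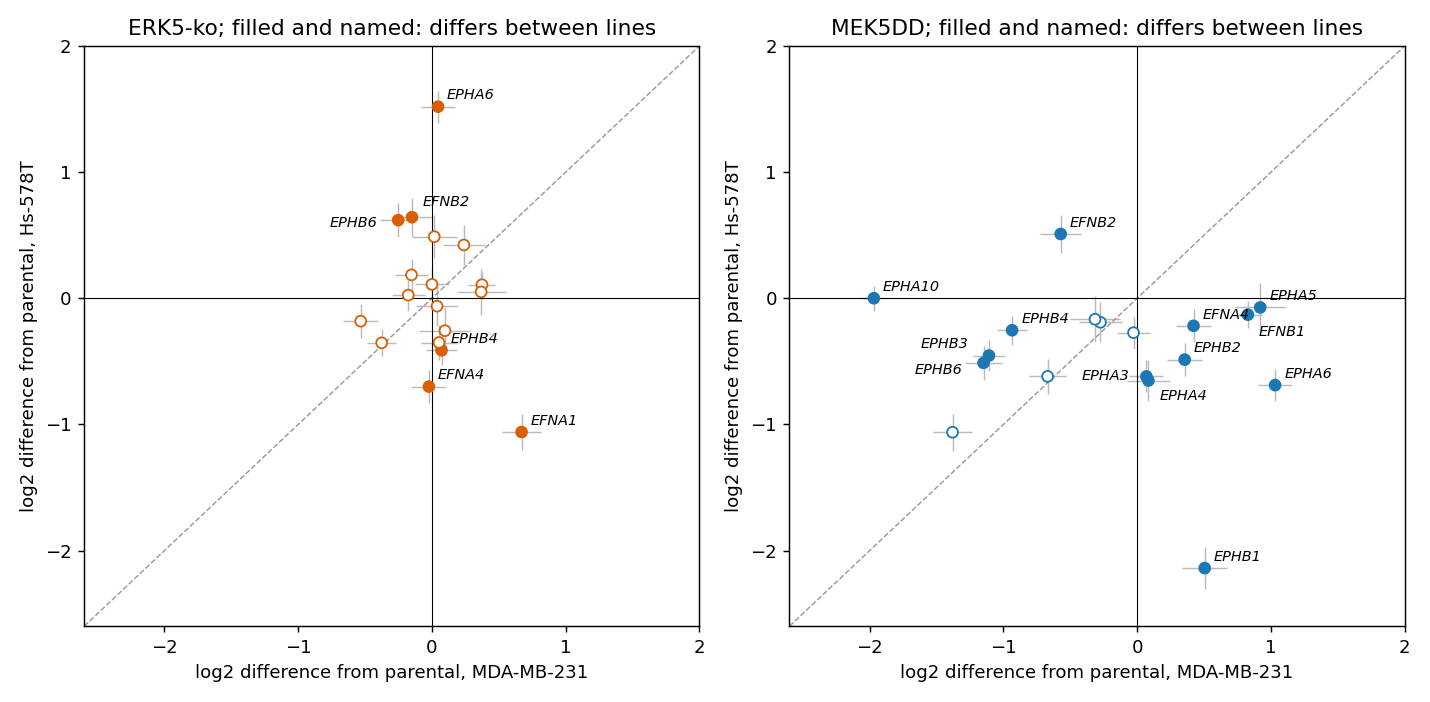
Log2 difference from parental controls in MDA-MB-231 (horizontal) against that in Hs-578T (vertical) for ERK5-ko (left) and MEK5DD (right), with standard errors, where the dashed line marks equal differences. Filled, named points are the 6 and 13 members whose effect differed between the lines, and EFNA1 lies at 0.67 and -1.06 for ERK5-ko and at -1.38 and -1.06 for MEK5DD.

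ERK5-ko and MEK5DD were also set against each other, which leaves the parental controls out. In MDA-MB-231 14 of 18 tested members passed, 8 higher in ERK5-ko beside 27.1% of all tested genes and 6 lower beside 27.9%. EPHA10 was 45.3-fold higher (95% counting interval 19.1 to 141) in ERK5-ko by reads, with a log2 difference of 2.34 (SE 0.101, limma adjusted p = 6.57e-09). It entered the test only through parental and ERK5-ko libraries, where it is high, so this p value is no separate support. EFNA1 followed at 2.05 (SE 0.146, limma adjusted p = 4.00e-07), then EPHB4 at 1.01 (adjusted p = 1.92e-05), EPHB3 at 0.93 (adjusted p = 5.80e-05), EPHB6 at 0.90 (adjusted p = 0.000170), EFNB3 at 0.72 (adjusted p = 0.000827), EFNA5 at 0.68 (adjusted p = 0.00789) and EFNB2 at 0.42 (adjusted p = 0.0350). EFNB1 at -1.20 (SE 0.108, limma adjusted p = 2.83e-06), EPHA6 at -0.99 (adjusted p = 4.58e-05), EPHB2 at -0.89 (adjusted p = 0.000149), EPHA5 at -0.82 (adjusted p = 0.00323), EPHB1 at -0.49 (adjusted p = 0.0283) and EFNA4 at -0.44 (adjusted p = 0.0132) were lower in ERK5-ko. The p value of EPHA6 is no separate support, since EPHA6 was tested only through MEK5DD here and Hs-578T ERK5-ko. EFNA3 (1.57 and 1.60 against 1.24 and 1.11) did not pass at 0.31 (adjusted p = 0.115) and did with the replicate block (0.31, adjusted p = 0.0357). A pseudocount of 1 ended the call of EPHB1 (-0.27), and no filter on low values that of EFNB2 (0.42). Without 1 library the calls of EPHB1, EFNA4, EFNA5 and EFNB2 were lost. EPHB1 was lost without any of the 4 compared (-0.49 to -0.48, adjusted p 0.0917 to 0.1002) and EFNA4 without replicate 1 of either group (-0.38 to -0.30, adjusted p 0.0983 to 0.130). EFNA5 was lost without ERK5-ko replicate 1 (0.56, adjusted p 0.0717) and EFNB2 without any MDA-MB-231 library or either Hs-578T ERK5-ko library (0.38 to 0.47, adjusted p 0.0517 to 0.156).

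In Hs-578T, where both groups carry the same passage labels, 7 members were higher in ERK5-ko than in MEK5DD beside 30.7% of all tested genes, and 1 was lower beside 19.2%, or 23.5% and 24.9% under median-ratio scaling, where EFNB1 passed as lower too. All 7 were receptors, and the 18 tested members hold 6 EphA and 5 EphB receptors. EPHB1 was at 12.4 and 11.4 RPKM against 1.119 and 1.995, a difference of 2.63 (SE 0.168, limma adjusted p = 4.00e-07). EPHA6 was 35.7-fold higher (95% counting interval 13.7 to 133) by reads, with a log2 difference of 2.21 (SE 0.126, limma adjusted p = 1.65e-07). It was tested only through these ERK5-ko libraries and MDA-MB-231 MEK5DD, where it is high, so this p value is no separate support. EPHB6 was at 10.3 and 10.6 against 3.94 and 5.12, a difference of 1.13 (SE 0.136, limma adjusted p = 4.52e-05). EPHA4 at 1.07 (adjusted p = 0.000217), EPHA3 at 0.73 (adjusted p = 0.000655), EPHB3 at 0.48 (adjusted p = 0.00731) and EPHA2 at 0.46 (adjusted p = 0.0110) were the other receptors, and the ligand EFNA4 was lower at -0.48 (adjusted p = 0.0103). Like that of EPHA6, the p value of EPHA3 comes from a test through groups where it is high and is no separate support. EFNA1, which was below parental controls in both groups, was at 2.07 and 2.56 against 2.38 and 2.23, and its difference of 0.00 (SE 0.146) did not pass. The calls of EPHA2 (0.23 to 0.41, adjusted p 0.0596 to 0.0783) and EFNA4 (-0.41 to -0.38, adjusted p 0.0565 to 0.0957) were lost without ERK5-ko replicate 2 or MEK5DD replicate 1, and that of EPHB3 without ERK5-ko replicate 1 (0.39, adjusted p 0.0607). EPHB2 passed as higher without ERK5-ko replicate 2 or MEK5DD replicate 2 (0.45 to 0.49, adjusted p 0.00811 to 0.0476), EFNB2 and EFNB3 without MEK5DD replicate 2 (0.42, adjusted p 0.00578, and 0.40, adjusted p 0.0471), and EPHB4 as lower without MEK5DD replicate 1 (-0.34, adjusted p 0.0165). With either other scaling EFNB1 passed as lower (-0.36 to -0.34, adjusted p 0.0132 to 0.0206). On the Hs-578T libraries alone the call of EPHA2 was lost (0.46, limma adjusted p = 0.0778).

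Downstream of the receptors, 46 genes of adaptors, exchange factors, kinases, phosphatases and proteases known from Eph and ephrin signalling were looked at, of which 43 were tested. In MDA-MB-231 ERK5-ko 4 were higher (9.30%, beside 6.91% of all tested genes) and 2 lower (4.65%, beside 10.4%). In Hs-578T ERK5-ko 12 rose (27.9%, beside 19.7%) and 7 fell (16.3%, beside 19.7%). In MDA-MB-231 MEK5DD 9 rose (20.9%, beside 17.5%) and 13 fell (30.2%, beside 23.8%). In Hs-578T MEK5DD 2 rose (4.65%, beside 6.44%) and 8 fell (18.6%, beside 17.0%). These shares lay close to the background in most cases, so the counts are no result about the list. Their medians were -0.07, 0.16, 0.04 and -0.15 on the log2 scale in the same order, beside -0.04, 0.01, -0.01 and -0.08 over all tested genes. SRC, the kinase recruited by many activated Eph receptors, was at 29.6 and 28.9 RPKM in MDA-MB-231 parental controls and 2.89 and 3.13 in MEK5DD, a difference of -3.08 (SE 0.113, limma adjusted p = 3.71e-09). It was followed there by the adaptor GRB7 at -1.52 (SE 0.119, limma adjusted p = 1.56e-06) and the exchange factor KALRN at -1.18 (SE 0.171, limma adjusted p = 0.000199). The exchange factor VAV3 was at 7.37 and 9.25 in Hs-578T parental controls, 2.79 and 2.37 in ERK5-ko and 0.633 and 0.803 in MEK5DD, with differences of -1.51 (SE 0.127, limma adjusted p = 5.96e-06) and -2.85 (SE 0.127, limma adjusted p = 2.38e-07), and it was listed at 0 in the MDA-MB-231 parental and ERK5-ko libraries. TIAM1, a Rac exchange factor, was the member of this group that changed most in MDA-MB-231 ERK5-ko, from 4.93 and 4.59 to 2.39 and 2.29, a difference of -0.89 (SE 0.161, limma adjusted p = 0.00349), before GRB7 at 0.43 (SE 0.119, limma adjusted p = 0.0298) and PICK1, a PDZ protein that binds ephrin-B tails, at 0.42 (SE 0.110, limma adjusted p = 0.0237). In Hs-578T ERK5-ko the scaffold GRIP1 went from 0.0786 and 0 to 0.502 and 0.816, a difference of 1.09 (SE 0.145, limma adjusted p = 0.000155), and PTPRO, a phosphatase of Eph receptors, from 1.43 and 1.28 to 2.995 and 3.04, a difference of 0.92 (SE 0.130, limma adjusted p = 0.000243). TIAM1 at -0.82 (SE 0.161, limma adjusted p = 0.00433) and CHN1, a Rac-inactivating protein downstream of EPHA4, at 0.78 (SE 0.115, limma adjusted p = 0.000798) completed the changes named in Hs-578T MEK5DD.

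Some members overlap other entries of the table by their start and end positions, which may limit their values. Whether exons are shared was not tested. The EIF2B5 entry that encloses EPHB3 reached 65.8 RPKM, and EFNA2 lies within an entry of MUM1. EPHB1, EPHB4, EPHA1, EPHA2, EPHA4, EPHA5 and EPHA6 overlap entries on the opposite strand. The library kit keeps strand, and whether the counting used it is not given in the sources used here.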

How the data were processed

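Bulk RNA-seq of 12 libraries was analysed, 2 per group. The authors deposited 1 table of RPKM values per gene, made from reads trimmed with Trimmomatic 0.32 and aligned with TopHat2 2.1.1 to GRCh38, per the submitters' processing notes, which also name DESeq2 1.12.4. A gene annotation release is not given in the sources used here. All values of the 32152 genes were whole reads to within 0.01 reads once scaled by length and library total, and these reads are quoted as counts. Differences were tested with limma 3.58.1 in R 4.3.3 on log2(RPKM + 0.5), with all 6 groups sharing 1 estimate of the spread (6 residual degrees of freedom) and Benjamini-Hochberg adjustment within each of 9 comparisons, and the steps were tested on simulated data. Samples were grouped by GEO's labels. The members and lists were chosen with earlier results of these data known. Named genes were all members, up to 3 signalling partners with the largest passing difference per comparison with parental controls, MAPK7, MAP2K5 and the markers. Alternatives were other pseudocounts (0.1 and 1), filters and scalings, voom on the recovered reads, the replicate block, a fit per line, the study's fold thresholds (above 1.5 or below 0.5) and leaving out each library. Ratios and intervals on reads used exact conditional binomial limits at 95%. Promoter windows came from RefSeq.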

Additional observations from a re-analysis of the deposited data

Results flagged for a closer look

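For each of the following members the difference from parental controls was not the same in the 2 lines, by limma's test of that difference itself at an adjusted p under 0.05. Values are the log2 difference in MDA-MB-231 minus that in Hs-578T. For ERK5-ko they were EFNA1 at 1.73, EPHA6 at -1.47, EPHB6 at -0.87, EFNB2 at -0.79, EFNA4 at 0.68 and EPHB4 at 0.48. For MEK5DD the receptors were EPHB1 at 2.64, EPHA10 at -1.97, EPHA6 at 1.72, EPHA5 at 0.99, EPHB2 at 0.84, EPHA4 at 0.74, EPHA3 at 0.69, EPHB4 at -0.68, EPHB3 at -0.65 and EPHB6 at -0.64. The ligands were EFNB2 at -1.08, EFNB1 at 0.96 and EFNA4 at 0.64. EPHA6, EPHB6, EPHB4, EFNB2 and EFNA4 are in both sets, and both use the same parental libraries. EPHA3 had at most 4 reads in any MDA-MB-231 library and EPHA10 at most 4 in any Hs-578T library, so that their values rest on 1 line. EPHA3, EPHA6 and EPHA10 were tested only through groups where they are high, so that passing is no separate support for them. Groups of 2 libraries were too small for a check of single outlying libraries.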

How the results depend on the processing

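No member's difference turned its direction while passing. With a library left out, its group has 1 sample, assumed to vary like the others. The number of members that passed, higher and lower, then ranged over 0 to 2 and 0 to 2 for MDA-MB-231 ERK5-ko (2 and 2 with all libraries), 2 to 5 and 2 to 5 for Hs-578T ERK5-ko (4 and 4), 3 to 6 and 6 to 7 for MDA-MB-231 MEK5DD (5 and 7), 0 to 1 and 5 to 10 for Hs-578T MEK5DD (1 and 9), 6 to 8 and 4 to 6 for ERK5-ko against MEK5DD in MDA-MB-231 (8 and 6), 6 to 10 and 0 to 1 in Hs-578T (7 and 1), and 3 to 4 and 11 to 12 between parental controls (3 and 12). Differences between lines ranged over 3 to 8 for ERK5-ko (6) and 9 to 13 for MEK5DD (13). For MDA-MB-231 ERK5-ko 1 member was higher with a pseudocount of 0.1 and 1 with voom, and 1 was lower with a pseudocount of 1, 1 with median-ratio scaling, 1 with quantile normalization and 1 with voom. For Hs-578T ERK5-ko 2 were higher with a pseudocount of 0.1, and 2 higher and 2 lower on that line alone. For Hs-578T MEK5DD 0 were higher without a filter and 0 on that line alone, where 3 were lower. For Hs-578T ERK5-ko against MEK5DD 2 were lower with median-ratio scaling and 2 with quantile normalization. With the study's fold thresholds added, MDA-MB-231 ERK5-ko kept 1 higher and 0 lower, Hs-578T ERK5-ko 1 lower, MDA-MB-231 MEK5DD 3 higher and 4 lower, Hs-578T MEK5DD 0 higher and 2 lower, ERK5-ko against MEK5DD 1 lower for MDA-MB-231 and 0 for Hs-578T, the parental comparison 7 lower and the ERK5-ko difference between lines 3. These counts fell because the thresholds ask for larger folds, and the cause of the other changes was not tested.

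Same-numbered libraries deviated together in all 6 pairs of groups within a line (correlations 0.107 to 0.541). With 2 numbers per group and no shared culture or day in the labels, whether the numbers pair the libraries is not settled, and the block was an alternative. Once replicate number entered as a block, the count of all genes that passed went from 2379 to 3441 for MDA-MB-231 ERK5-ko, 5413 to 6532 for Hs-578T ERK5-ko, 5673 to 6612 for MDA-MB-231 MEK5DD and 3213 to 4273 for Hs-578T MEK5DD. Among the members the block added EPHA4 in Hs-578T ERK5-ko, EPHB2 in MDA-MB-231 MEK5DD and EFNA3 in MDA-MB-231 ERK5-ko against MEK5DD, and it changed no other call. Depth limits EPHA1, EPHA7, EPHA8 and EFNA2 in all libraries, and EPHA3, EPHA6, EPHA10 and EPHB1 in the groups where they have few reads. With the filter at 1 RPKM, EPHA3 was not tested and has no value.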

Other observations

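EPHA7, a receptor that was too low to be tested, had 28 and 31 reads in the MDA-MB-231 MEK5DD libraries, 5 and 7 in parental controls and 1 and 1 in ERK5-ko. In ERK5-ko it was 27.1-fold lower (95% counting interval 7.17 to 229) than in MEK5DD, without overlap between the groups. In Hs-578T it had 2 and 0 reads in parental controls, 5 and 2 in ERK5-ko and 0 and 0 in MEK5DD. These values were picked out after they were seen and carry no test.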
